A study of Mus musculus with 7 samples.

Results

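The genes described here are 10 imprinted genes, Meg3, Rian, Peg3, Nnat, Cdkn1c, Grb10, Igf2, Plagl1, Kcnq1ot1 and H19, followed through the epithelial cells of the mouse stomach. They were chosen by name, after earlier results of these same data had singled out Meg3 in acid-secreting cells and Nnat in hormone-producing cells. Of the 18907 gene features in the tables, 9 of the 10 genes had a row. H19 was not analysed here. The animals were C57BL/6 mice, marked WT in the sample titles, and all groups share that strain and genotype. Glands were freshly isolated from the corpus, the acid-producing body of the stomach, or from the pylorus, its outlet. Single living cells (DAPI-negative) were sorted into 384-well plates and profiled by SORT-seq, in which the CEL-seq2 chemistry counts transcripts by unique molecular identifiers (UMIs). There were 4 corpus plates and 3 pylorus plates, and the labels give no treatment, age or sex and do not map plates to animals, so that p-values measure the spread between plates.

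An imprinted gene is transcribed mainly from 1 parental copy, and DNA methylation laid down in the egg or sperm marks which copy is used. Most imprinted genes sit in clusters that share a control region, often with a protein-coding growth regulator and a long noncoding RNA on opposite parental copies. Many act on fetal growth and become quiet in adult tissue, while endocrine and neural cells are known to keep several of them active. UMI counts do not tell the parental copies apart, so what follows concerns levels, not imprinting.

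Of 2688 wells, 2235 held at least 1000 UMIs outside the spike-in RNAs and passed as cells, with 1252 on the corpus and 983 on the pylorus plates. Plates held 2646492 to 9511078 UMIs. Corpus replicate 1 and pylorus replicate 1 were shallow, with 4.27% and 6.55% of UMIs from spike-ins, and corpus replicate 2 lay apart in its cell make-up, with 85 endocrine-like and 4 pit-like cells. Some values of corpus replicate 1 went against its label, since it held 3 parietal-like cells among 278 and all 5 cells led by Gast, whose gastrin cells are typical of the pyloric antrum. Its neck-like cells held neck markers at 65287 CPM, against 4272 to 8169 CPM in the other plates. Corpus replicates 3 and 4 and pylorus replicates 2 and 3 resembled each other in depth and spike-in share and are called the plates of like depth here. Corpus replicate 2 lay near them, with a median of 19648 UMIs a cell against 20326 in pylorus replicate 2, and with 0.426% spike-ins against 0.256 to 0.272% in the 4, so results on the 4 are also given with it added, an alternative chosen after seeing the data. Cells were clustered without the imprinted genes and named by marker genes, as neck-like (476 cells), proliferating-like (429), pit-like (384), chief-like (282), endocrine-like (282), parietal-like (144), immune-like (115, with mast cell genes leading) and tuft-like (50), and 73 cells stayed unnamed. Defining markers of each named class were present in it, 7 of 8 parietal markers and 8 of 11 endocrine markers in over 25% of the class's cells among them. A level is given in CPM, the UMIs of a gene per 10000 UMIs of all genes times 100, summed over the cells of 1 class in 1 plate, for plates with at least 10 such cells unless stated otherwise. The order of classes is a description with no test, since the classes were made from the same cells.

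Each gene had its own distribution over the classes, and the 9 genes fell into a few patterns. Meg3 (5911 UMIs in all kept cells), Rian (405), Peg3 (1461) and Nnat (346 of them in endocrine-like cells) came mostly from endocrine-like cells, with 78.7%, 74.3%, 94.1% and 88.3% of their UMIs there. Meg3 and Rian were also present in parietal-like cells of corpus plates. Cdkn1c (4393 UMIs) and Grb10 (171) came mostly from chief-like and neck-like cells. Igf2 (169) and Plagl1 (428) were sparse and spread over several classes. Kcnq1ot1 (71341 UMIs) had a UMI in 98.3% of cells.

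**Figure D1:**
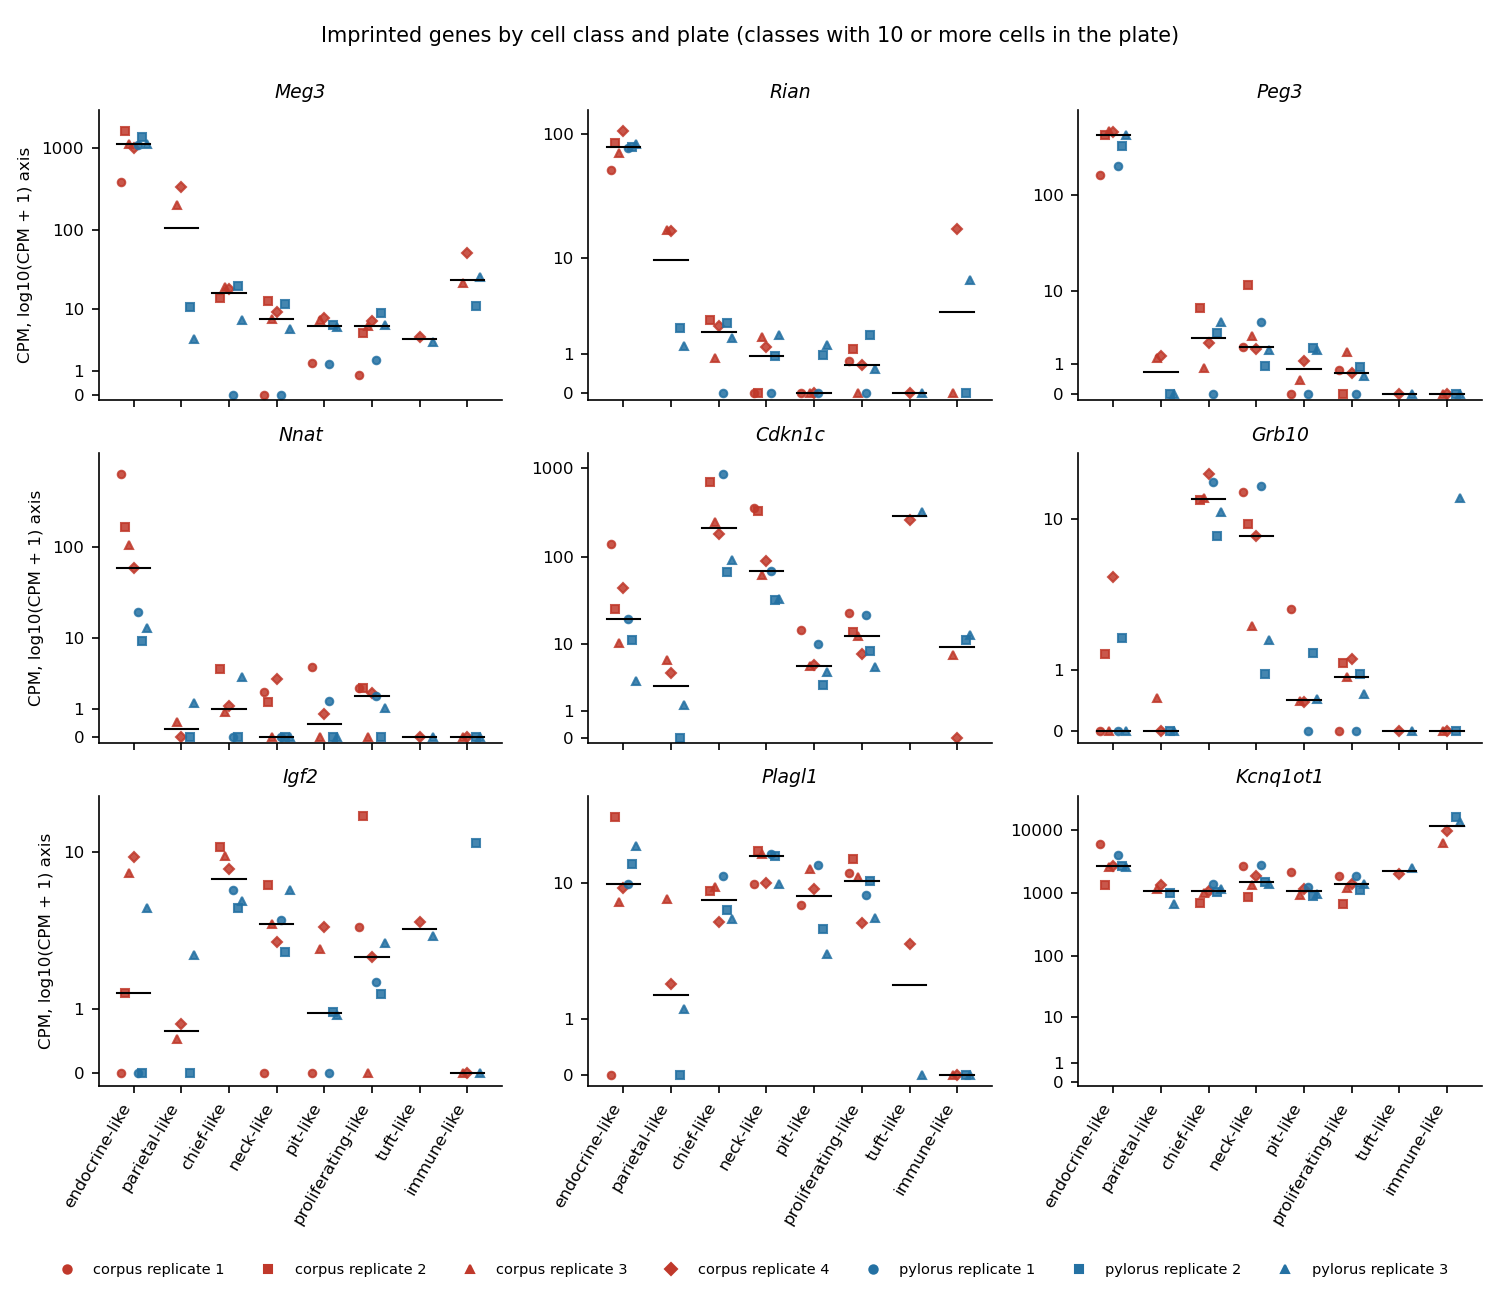
Levels of the 9 imprinted genes by cell class. Each point is 1 plate (class sums with 10 or more cells), red for corpus and blue for pylorus, black bars are medians over plates, and the vertical axes show CPM on a log10(CPM + 1) scale. Meg3, Rian, Peg3 and Nnat are highest in endocrine-like cells, and Cdkn1c and Grb10 are high in chief-like and neck-like cells.

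The sequences around the start sites of the genes that were highest in endocrine-like cells are shown because these genes were high in the same class, from 250 bases before to 50 bases after the start, taken from RefSeq on GRCm38.p6. They are printed 5′ to 3′ on the gene's strand, with CG dinucleotides, the sites of DNA methylation, in capitals. Of the members, 8 had such an entry, and for Cdkn1c and H19 none is printed.
Meg3, chr12:109540746-109541045, plus strand: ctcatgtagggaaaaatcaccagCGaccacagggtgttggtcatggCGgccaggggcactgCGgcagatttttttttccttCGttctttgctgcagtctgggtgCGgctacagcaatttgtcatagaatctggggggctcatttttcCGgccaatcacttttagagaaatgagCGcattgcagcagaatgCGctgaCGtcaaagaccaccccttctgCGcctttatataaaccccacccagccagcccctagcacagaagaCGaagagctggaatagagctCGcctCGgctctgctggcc
Rian, chr12:109603695-109603994, plus strand: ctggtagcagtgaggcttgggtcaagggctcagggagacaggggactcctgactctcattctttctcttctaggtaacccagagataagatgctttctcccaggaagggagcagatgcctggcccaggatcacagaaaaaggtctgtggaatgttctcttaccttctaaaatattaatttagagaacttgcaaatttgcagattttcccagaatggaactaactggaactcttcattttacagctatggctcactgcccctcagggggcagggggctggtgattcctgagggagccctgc
Peg3, chr7:6730370-6730669, minus strand: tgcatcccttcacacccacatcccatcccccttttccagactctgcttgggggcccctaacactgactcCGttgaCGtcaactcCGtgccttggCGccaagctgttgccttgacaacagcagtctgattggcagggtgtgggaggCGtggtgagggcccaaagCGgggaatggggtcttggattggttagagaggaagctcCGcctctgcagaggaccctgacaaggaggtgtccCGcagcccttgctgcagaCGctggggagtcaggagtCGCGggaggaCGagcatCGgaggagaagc
Nnat, chr2:157559828-157560127, plus strand: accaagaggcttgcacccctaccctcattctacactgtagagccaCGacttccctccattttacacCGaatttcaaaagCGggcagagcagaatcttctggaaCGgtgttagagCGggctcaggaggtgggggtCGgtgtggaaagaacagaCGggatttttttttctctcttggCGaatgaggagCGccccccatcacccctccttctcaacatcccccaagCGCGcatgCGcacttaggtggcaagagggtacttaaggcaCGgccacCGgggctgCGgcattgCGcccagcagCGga
These windows held 13 CG in Meg3, 0 in Rian, 13 in Peg3 and 17 in Nnat, beside a median of 7 CG (quartiles 3 and 20) over 32851 such windows of 27025 genes. The 6 letters TGCCGC, read on both strands, the core recognised by the imprint-protecting factor ZFP57 when methylated, occurred 1 time in the windows of Meg3 and Nnat and not in those of Rian and Peg3. Over all windows 11.61% held these letters on either strand. A match describes the letters only.

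Meg3, a long noncoding RNA of the Dlk1-Dio3 cluster on chr12, was highest in endocrine-like cells in each of the 7 plates. Its level there was 387, 1580, 1106 and 1003 CPM for corpus replicates 1 to 4 and 1083, 1358 and 1097 CPM for pylorus replicates 1 to 3. The lowest value came from the shallow corpus replicate 1, where 22 UMIs in 23 cells stood behind it, and the regions overlapped. The next class in the same plate was 2.99 to 640-fold lower. Of 282 endocrine-like cells 211 held a Meg3 UMI (74.8%, 95% Wilson interval 69.4 to 79.5%), at a median depth of 11354 UMIs. In pit-like cells, whose median depth was 28825.5 UMIs, 59 of 384 cells did (15.4%, 12.1 to 19.3%), with at most 2 UMIs in a cell. With every cell thinned to 1000 UMIs these shares were 45.4% and 0.260%. Intervals cover counting error only.

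Rian, a noncoding RNA made from the same parental copy as Meg3, followed Meg3 across classes. Its endocrine-like levels were 52.8, 85.7, 71.9 and 106 CPM for corpus replicates 1 to 4 and 78.8, 80.1 and 84.3 CPM for pylorus replicates 1 to 3. The lowest rested on 3 UMIs, and the other classes stood at 17.5 CPM or less in every plate. Mirg, another noncoding RNA of the cluster that carries many microRNAs, had a median of 30.6 CPM in endocrine-like cells and 2.33 CPM or less in neck-like, pit-like and proliferating-like cells. The 3 RNAs appeared in the same cells. Of 211 endocrine-like cells with a Meg3 UMI, 110 held Rian and 71 held Mirg, and of the 71 without Meg3, 2 held Rian and 0 held Mirg. Median depth was 12803 UMIs in the former and 6388 in the latter, so depth differs beside these shares. Dlk1, the protein-coding gene of the opposite parental copy and an inhibitor of Notch signalling, had only 54 UMIs in 23 cells.

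Peg3, a zinc-finger gene that is active on the paternal copy, had the largest share of its UMIs in 1 class among the 9 genes. Endocrine-like cells held 158, 404, 436 and 431 CPM for corpus replicates 1 to 4 and 197, 313 and 405 CPM for pylorus replicates 1 to 3. The 2 shallow plates were the lowest in their regions, the rest lay within 313 to 436 CPM, and the next class in the same plate was at least 35.5-fold lower. A Peg3 UMI was found in 240 of 282 endocrine-like cells, in 4 of 144 parietal-like cells, and in 0 of 115 immune-like and 0 of 50 tuft-like cells, which allows up to 2.61% and 6% of cells with a Peg3 UMI, a limit on cells with a captured UMI and not on cells that express the gene. Median depth was 3691 UMIs in immune-like and 16553 UMIs in tuft-like cells. Usp29, which starts beside Peg3 in the opposite direction, had 33 UMIs in all, 28 of them in endocrine-like cells. The sources used here do not say whether strand was used in counting, so reads of such overlapping or divergent pairs cannot be told apart.

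Across endocrine cell kinds, sorted by whichever of Ghrl, Hdc, Sst, Gast or Tph1 a cell held most of, Meg3 and Peg3 were present in the common kinds. The sorting does not separate the kinds cleanly. Of 136 corpus endocrine-like cells without a Nnat UMI, 122 held a Ghrl UMI and 116 an Hdc UMI. Ghrl encodes the appetite hormone ghrelin, Hdc makes histamine in enterochromaffin-like cells, Sst encodes somatostatin and Gast gastrin. Since these kinds were rare, plates with at least 4 cells of a kind were used here. Meg3 had a median of 1212 CPM over plates in Ghrl-led cells (7 plates, 209 to 2216), 1011 CPM in Hdc-led cells (7 plates, 393 to 1586) and 1162 CPM in Sst-led cells (3 plates, 464 to 1270). The lowest Ghrl-led value rested on 2 Meg3 UMIs in 4 cells of corpus replicate 1 and the highest on 6 cells of pylorus replicate 1. The 3 Sst-led values rested on 7, 4 and 5 cells. In the 5 plates with 10 or more Ghrl-led cells Meg3 lay between 917 and 1715 CPM, and in the 5 with 10 or more Hdc-led cells between 934 and 1586 CPM. Peg3 had medians of 374, 381 and 384 CPM in the same order. These ranges overlapped throughout. The 5 Gast-led cells held 5 Meg3 UMIs in 1 cell and no Peg3 UMI.

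In the endocrine-like class, Meg3, Rian and Peg3 showed region differences smaller than their spread between plates, given here without a test because Nnat had been singled out in this contrast. The log2 difference of pylorus over corpus, from limma on log2(CPM + 2) of the plate sums, was 0.32 ± 0.51 (SE) for Meg3, 0.03 ± 0.35 for Rian and -0.23 ± 0.51 for Peg3. Each changed sign when 1 plate was left out: Meg3 to -0.20 without corpus replicate 1, Rian to -0.25 without the same plate and Peg3 to 0.17 without pylorus replicate 1. Of 6258 genes tested in endocrine-like cells 0 passed an adjusted p of 0.05 (0% called, limma, with 105 genes at an unadjusted p under 0.05 and 0 passing with voom weights). Cdkn1c, low in this class, stood at 141, 25.8, 10.3 and 44.8 CPM in corpus and 19.7, 11.2 and 3.30 CPM in pylorus plates, with overlap, and its log2 difference was -1.80 ± 0.80. These levels rested on 68 UMIs in corpus and 10 in pylorus plates, and a single cell of corpus replicate 4 held 15 of them.

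Parietal-like cells, the acid secretors marked by Atp4a and Atp4b, held Meg3 in corpus plates and hardly any in pylorus plates. This is the pattern the genes were chosen for, so it is described without a test. The level was 202 CPM in corpus replicate 3 (452 UMIs in 56 cells) and 335 CPM in corpus replicate 4 (472 UMIs in 42 cells), against 10.9 CPM in pylorus replicate 2 (5 UMIs in 12 cells) and 3.88 CPM in pylorus replicate 3 (3 UMIs in 20 cells). Both corpus plates lay far above both pylorus plates. The other 3 plates held 3, 8 and 3 parietal-like cells with 0, 1 and 0 Meg3 UMIs, at median depths of 11523 UMIs or less, too few to compare. The log2 difference was -5.19 ± 0.33 (SE, n = 2 plates each) and lay between -5.77 and -4.60 when 1 plate was left out. In the same fit 481 of 6860 genes passed (7.01% called), which the choice of Meg3 already used, and nothing is read from it. In bulk sums such as these, fewer expressing cells and less RNA per cell cannot be told apart, and the counts in single wells follow.

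**Figure D2:**
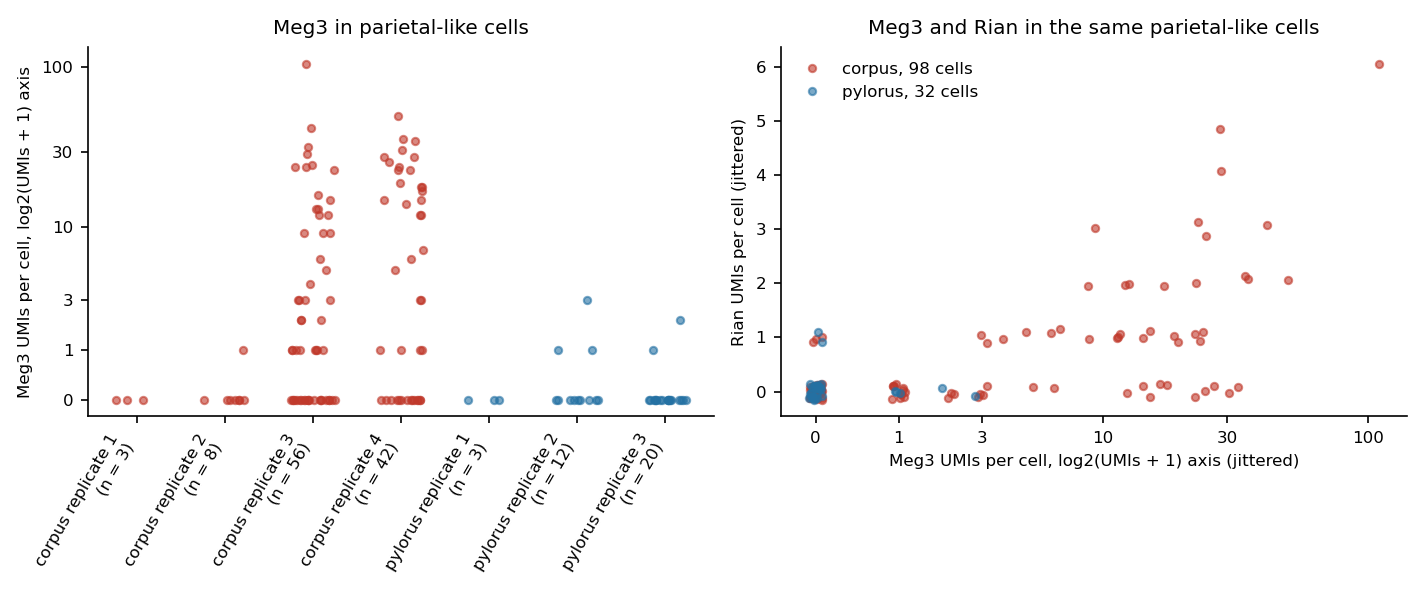
Left, Meg3 UMIs in each parietal-like cell (1 point per cell, log2(UMIs + 1) axis) for each of the 7 plates, corpus in red and pylorus in blue. Right, Meg3 against Rian UMIs in the parietal-like cells of the plates of like depth. Cells with 5 or more Meg3 UMIs number 19 and 22 in corpus replicates 3 and 4 and 0 in the pylorus plates.

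The corpus signal was uneven from cell to cell. In corpus replicate 3, 35 of 56 parietal-like cells held a Meg3 UMI (62.5%, 95% Wilson interval 49.4 to 74.0%), 19 held 5 or more and the highest held 104. In corpus replicate 4, 28 of 42 held one (66.7%, 51.6 to 79.0%), 22 held 5 or more and the highest held 50. In pylorus replicates 2 and 3, 3 of 12 (25%, 8.89 to 53.2%) and 2 of 20 (10%, 2.79 to 30.1%) held one, none held more than 3, and both shares lay near the 15.4% of pit-like cells. Median depth was 39338.5 and 34143 UMIs in the corpus plates and 37031.5 and 39486.5 in the pylorus plates, and these depths overlapped. In corpus replicate 3 the 5 highest cells held 51.3% of the plate's parietal-like Meg3 UMIs, and in corpus replicate 4 they held 38.1%. With cells thinned to 1000 UMIs, 10 of 56 and 5 of 42 corpus cells kept a UMI, and 0 of 12 and 0 of 20 pylorus cells did.

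The other 2 RNAs of the cluster appeared in the same parietal-like cells as Meg3. Rian had 39 and 24 UMIs in corpus replicates 3 and 4 (17.4 and 17.0 CPM) and 1 and 1 UMIs in pylorus replicates 2 and 3 (2.17 and 1.29 CPM), a log2 difference of -2.59 ± 0.51 given without a test. Mirg had 12 and 16 UMIs in the corpus plates and 0 in each of the pylorus plates. In corpus replicate 3, Rian was found in 18 of 35 cells with Meg3 and 2 of 21 cells without it, and in corpus replicate 4 in 14 of 28 and 1 of 14. Mirg was found in 10 of 35 and 12 of 28 cells with Meg3 and in 0 of 21 and 0 of 14 without. Cells with and without Meg3 had similar depths, 39810 and 35460 UMIs at the median in corpus replicate 3 and 28946 and 36167 in corpus replicate 4.

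Per 100 Meg3 UMIs, parietal-like cells held 8.63 and 5.08 Rian UMIs in corpus replicates 3 and 4, and endocrine-like cells of the same plates 6.50 and 10.6. For Mirg the values were 2.65 and 3.39 in parietal-like and 3.02 and 3.05 in endocrine-like cells. Peg3 was different, at 0.664 and 0.424 per 100 Meg3 UMIs in parietal-like cells and 39.4 and 43.0 in endocrine-like cells. Endocrine markers were compared between the parietal-like cells with and without Meg3. Chga, the granule protein of endocrine cells, stood at 790 CPM in cells with 5 or more Meg3 UMIs and 699 CPM in cells with none in corpus replicate 3, and at 1141 and 1006 CPM in corpus replicate 4. The 11 endocrine markers summed to 1175 and 1024 CPM in replicate 3 and to 1775 and 1515 CPM in replicate 4, with 1 to 4 of them at 0. Over all parietal-like cells they summed to 1074 and 1676 CPM in the corpus plates and to 1766 and 1775 CPM in the pylorus plates, against 77289 CPM or more in endocrine-like cells. Peg3 had 3 and 2 UMIs in these corpus cells. Over all parietal-like cells of a plate neural and glial markers summed to 6.52 CPM or less, stromal markers to 2.23 CPM or less, and muscle markers were at 0. The 5 endothelial markers, of which 4 had a row, summed to 47.8 and 51.8 CPM in the corpus and 52.2 and 37.5 CPM in the pylorus plates. Of the 5, 2 or 3 were at 0 or without a row. In cells with 5 or more and no Meg3 UMIs they summed to 55.6 and 43.9 CPM in corpus replicate 3 and to 54.5 and 42.3 CPM in corpus replicate 4, and stromal markers to 2.78 and 2.51 and to 1.43 and 4.02 CPM. The part of these markers in the Meg3 pattern was not tested. Atp4b was at 10016 and 9920 CPM in cells with 5 or more and no Meg3 UMIs of corpus replicate 3, and at 9215 and 9721 CPM in corpus replicate 4.

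Other genes of the lists are given by value for this contrast. Kcnq1ot1 was lower in pylorus parietal-like cells by a log2 difference of -0.93 ± 0.19, fitted after scaling, with scaled means of 1411 and 762 CPM in corpus and pylorus plates. Before scaling its levels lay closer, at 1163 and 1357 CPM for corpus replicates 3 and 4 and 1022 and 669 CPM for pylorus replicates 2 and 3. That difference was -0.58 without pylorus replicate 3, -1.29 without pylorus replicate 2 and -1.51 with cells thinned to 1000 UMIs. In the list of insulin-like growth factor (IGF) and insulin signalling genes, the growth factor Igf1 differed by -2.52, its receptor Igf1r by -0.79 and the binding protein Igfbp2 by -0.65. Igf2r and Insr both stood at -0.74, Igf2bp2 and Grb7 at -0.65, Irs2 at -0.0085 and Grb14 at 0.14. Among inhibitors of cyclin-dependent kinases and G1 cyclins, Ccnd2 differed by -1.38 and Cdkn2b by -0.62. The rest of that second list lay between -0.52 (Cdkn2c) and 0.67 (Cdk4). The median over the 9 genes of the IGF and insulin list with enough counts was -0.65, and over all 6860 genes it was -0.03.

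Nnat encodes neuronatin, a small membrane protein of the endoplasmic reticulum, and lies within an intron of Blcap. In endocrine-like cells it stood at 581, 162, 103 and 58.9 CPM for corpus replicates 1 to 4 and at 19.7, 9.32 and 13.2 CPM for pylorus replicates 1 to 3. The regions did not overlap, but the 4 corpus plates spanned a wide range, and the highest rested on 33 UMIs in 23 cells of the shallow corpus replicate 1. The UMIs behind these levels were 33, 233, 40 and 25 in corpus and 2, 5 and 8 in pylorus plates. This difference was known when the genes were chosen and is given without a test. Its log2 size was -3.39 ± 0.57 (SE), and -3.81 to -2.86 when 1 plate was left out.

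The Nnat signal came from few cells. A UMI was found in 39 of 175 endocrine-like cells of corpus plates (22.3%, 95% Wilson interval 16.7 to 29.0%) and in 8 of 107 of pylorus plates (7.48%, 3.84 to 14.1%). The 22 cells with 5 or more Nnat UMIs were all endocrine-like cells of corpus plates, 2, 15, 3 and 2 in replicates 1 to 4, and held 291 of the 331 corpus endocrine UMIs (87.9%). The highest held 42 UMIs, against 3 in any pylorus cell. Outside the endocrine-like class 42 of 1953 cells held a UMI and none held more than 3. By leading transcript, a Nnat UMI was found in 25 of 147 Ghrl-led, 21 of 106 Hdc-led, 1 of 22 Sst-led and 0 of 5 Gast-led cells. Other genes were compared, without a test, between the cells with 5 or more Nnat UMIs and those with none. The former held 1466 CPM of Meg3 and 366 CPM of Peg3, beside 1341 and 409 CPM in the 136 corpus endocrine-like cells without a Nnat UMI. Ghrl stood at 10177 and 16537.5 CPM, Hdc at 5874 and 4879 CPM and Chga at 62753 and 53143 CPM in the same order, and median depth was 15587 and 11538.5 UMIs. Blcap, the host gene, stood at 79.4 and 60.9 CPM in these cells, and across plates its endocrine-like level was 70.4, 68.9, 41.1 and 56.5 CPM in corpus and 49.2, 37.3 and 36.4 CPM in pylorus plates. Blcap is known to be imprinted in brain, and without strand the reads of the 2 genes cannot be told apart where they overlap. Of the 22 cells with 5 or more Nnat UMIs, 15 came from corpus replicate 2. That plate had the highest endocrine-like Meg3 level, 1580 CPM, and the highest Chga level in Ghrl-led cells, 61178 CPM. The part of the plates in the comparison of cells with and without Nnat was not tested.

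**Figure D3:**
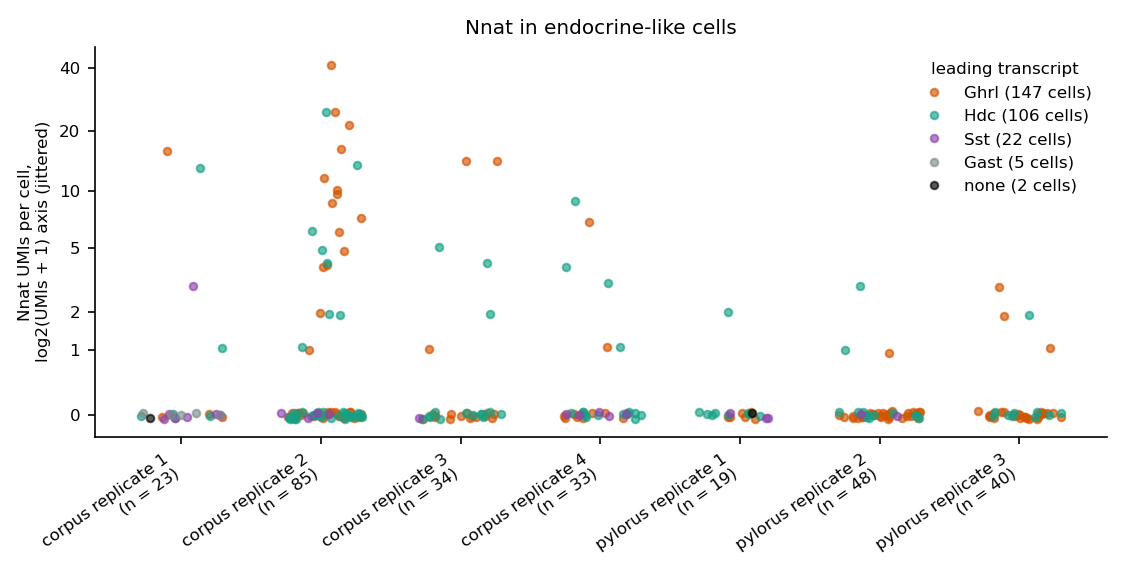
Nnat UMIs in each endocrine-like cell (1 point per cell, log2(UMIs + 1) axis) by plate, coloured by the hormone or amine transcript the cell held most of. The 22 cells with 5 or more UMIs lie in the 4 corpus plates, 15 of them in corpus replicate 2.

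Over all kept cells of a plate Nnat stood at 15.2, 41.8, 4.53 and 4.07 CPM in corpus and 1.53, 0.606 and 1.88 CPM in pylorus plates, without overlap, a log2 difference of -1.95 ± 0.59 given without a test. The size of this difference depended on the plates and the weights, at -1.05 among the plates of like depth, -1.40 without corpus replicate 2 and -2.90 with voom weights. Endocrine-like cells were 8.27%, 30.5%, 9.42% and 9.88% of corpus and 7.60%, 13.2% and 10.8% of pylorus cells, and corpus replicate 2 was highest in both. The part of that share in the level was not tested.

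Cdkn1c encodes p57, an inhibitor of cyclin-dependent kinases that holds cells out of the cycle. Chief-like cells, which make pepsinogen, held 64.0% of its UMIs, neck-like cells 23.6% and tuft-like cells 5.62%. In chief-like cells it stood at 695, 248 and 183 CPM for corpus replicates 2 to 4 and at 848, 67.8 and 93.8 CPM for pylorus replicates 1 to 3. In neck-like cells it stood at 357, 330, 64.1 and 89.9 CPM in corpus and 70.6, 32.6 and 34.2 CPM in pylorus plates. Corpus replicates 1 and 2 were the highest of the neck-like values and pylorus replicate 1 and corpus replicate 2 of the chief-like values. The 6 chief-like cells of corpus replicate 1 were at 3045 CPM. Tuft-like cells, a rare chemosensory class, held 264 and 319 CPM in the 2 plates with enough cells, the highest median of the named classes (292 CPM). Median levels were 19.7 CPM in endocrine-like, 12.6 in proliferating-like, 5.35 in pit-like and 2.78 in parietal-like cells. A UMI was found in 211 of 282 chief-like cells (74.8%) and 223 of 476 neck-like cells (46.8%), and in 53 of 384 pit-like cells (13.8%) at a depth like that of chief-like cells.

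Over all plates, in the fit with no replicate term, the region difference of Cdkn1c did not pass in any class. Among the 4 plates of like depth it passed in chief-like and neck-like cells and over all cells, and with corpus replicate 2 added to those 4 it passed in none of the 3. With all plates the log2 difference was -0.78 ± 0.84 (SE, adjusted p = 0.999, limma) in chief-like cells, and with 1 plate left out it ran from -1.94 without pylorus replicate 1 to -0.11 without pylorus replicate 2. It was -1.90 ± 0.50 (adjusted p = 0.9999, unadjusted p = 0.00271, limma) in neck-like and -0.75 ± 0.82 (adjusted p = 0.9999, limma) over all cells, where it ran from -1.69 to -0.18 without the same 2 plates. The background of these fits was 0% of 7071 genes in chief-like cells (limma, 0 called, 172 at an unadjusted p under 0.05, and 0 with voom weights), 0.0364% of 8252 in neck-like cells and 0.0167% of 12003 over all cells. In neck-like cells corpus replicate 3 lay below pylorus replicate 1 before scaling, and after scaling the regions did not overlap. With 1 plate left out the neck-like difference lay between -2.29 and -1.57.

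Among the plates of like depth, chief-like cells held 217 ± 53.9 CPM in corpus (SD, n = 2, scaled) and 80.1 ± 13.8 CPM on the pylorus side (SD, n = 2), which gave a log2 difference of -1.40 ± 0.18 (adjusted p = 8.33e-07, limma). Neck-like cells held 79.4 ± 15.9 and 32.3 ± 0.640 CPM, a difference of -1.23 ± 0.20 (adjusted p = 0.000523, limma). Over all cells the values were 49.7 ± 3.06 and 29.9 ± 5.99 CPM, a difference of -0.71 ± 0.14 (adjusted p = 0.0141, limma). In these fits 0.855% of 7137 genes passed in chief-like cells, 0.984% of 8432 in neck-like cells and 3.53% of 11978 over all cells. With 2 plates a region, the p-values rest mostly on the spread pooled over genes. With corpus replicate 2 added the differences were -1.94 ± 0.45 (adjusted p = 0.850, limma) in chief-like cells, -1.88 ± 0.45 (adjusted p = 0.240, limma) in neck-like cells and -1.50 ± 0.76 (adjusted p = 0.975, limma) over all cells, larger in size and with a wider error. In pit-like cells the difference was -0.45 ± 0.36 (adjusted p = 0.683, 2.97% of 8868 genes called) and in proliferating-like cells -0.49 ± 0.36 (adjusted p = 0.813, 0.435% of 8971 called, limma). Over all plates in those classes it was -0.40 ± 0.44 and -0.33 ± 0.42, with 0% of 8621 genes (limma, 202 at an unadjusted p under 0.05, and 1 with voom weights) and 0.0118% of 8492 genes called.

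**Figure D4:**
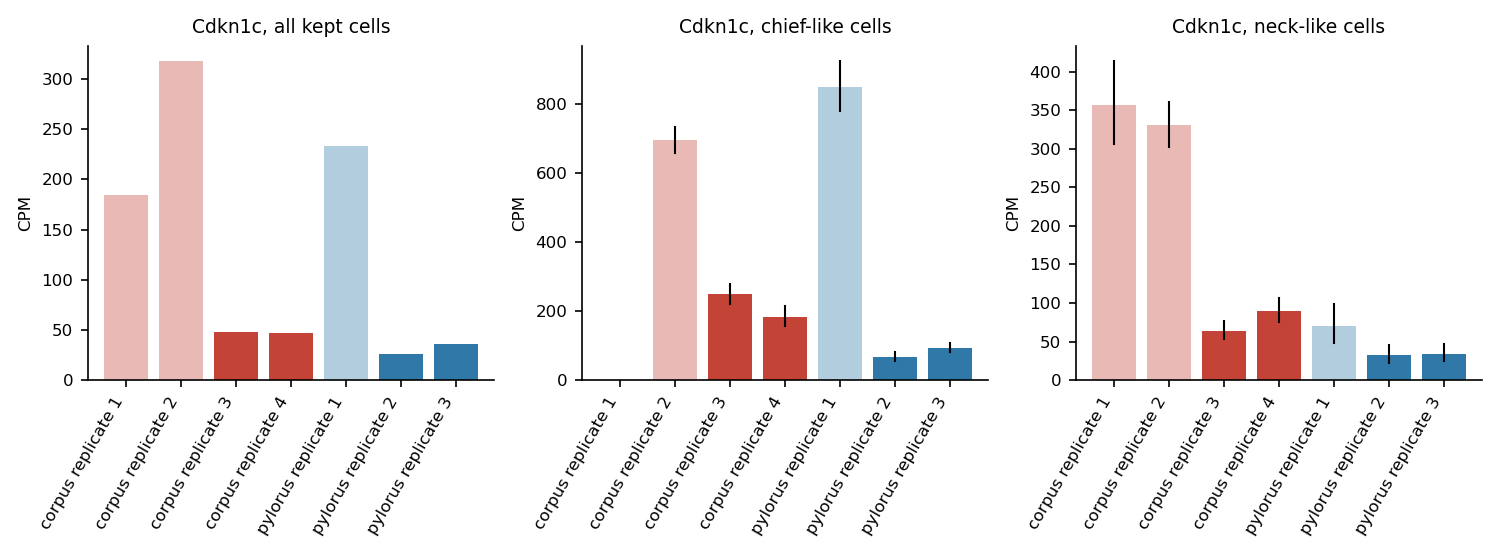
Cdkn1c in each plate over all kept cells (left), in chief-like cells (middle, without corpus replicate 1, which held 6 such cells) and in neck-like cells (right), as CPM from 0. Red is corpus, blue is pylorus, full colour marks the plates of like depth, and black lines in the middle and right panels are 95% Poisson intervals of the counts. Among the full-colour bars both corpus plates lie above both pylorus plates in each panel.

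A class was made of different clusters depending on the plate. Chief-like cells of corpus replicate 2 and pylorus replicate 1 fell in a cluster led by Try10, Mug1 and Sostdc1, with Cdkn1c at 695 and 877 CPM. Those of the plates of like depth fell in a cluster led by Try4, Try10 and Sostdc1, at 248 and 183 CPM in corpus and 68.6 and 93.8 CPM in pylorus plates. Neck-like cells of the plates of like depth fell mostly in a cluster led by Muc6, Pga5 and Myo16, with 62.9 and 87.4 CPM in corpus and 29.1 and 32.8 CPM in pylorus plates, so the order of the regions was the same within it. Markers of other classes moved with the chief-like result. The 5 neck markers summed to 1609 and 1939 CPM in chief-like cells of corpus replicates 3 and 4 and to 3831 and 3882 CPM in those of pylorus replicates 2 and 3. The 8 parietal markers summed to 2214 and 1740 against 878 and 987 CPM. Chief markers summed to 160029 and 164346 against 173929 and 158489 CPM, and in neck-like cells the neck markers summed to 8169 and 7453 against 5927 and 4272 CPM. Their part in the difference was not tested. Chief-like cells were 9.97% and 7.49% of these corpus plates and 16.2% and 16.5% of these pylorus plates, so the higher level over all corpus cells went with a smaller chief-like share.

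Cdkn1c and the cycle marker Mki67 were seen together in single cells. In the proliferating-like class Mki67 was found in 59 of 88 cells with a Cdkn1c UMI and in 194 of 341 without one. In chief-like cells it was found in 45 of 211 and 20 of 71, and in neck-like cells in 28 of 223 and 40 of 253. These counts pool plates, and the direction differed between plates, so none is read from them. In neck-like cells the shares with and without Cdkn1c were 32% and 21.4% in corpus replicate 1, but 9.76% and 25.6% in corpus replicate 3. In chief-like cells they were 17.9% and 0% in pylorus replicate 1, but 29.0% and 39.3% in pylorus replicate 2. Cells with and without Cdkn1c differed in depth, and free RNA in the wells was not separated from a cell's own.

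Grb10, an adaptor that binds and restrains the insulin and IGF-1 receptors, was a sparse gene that, like Cdkn1c, was found in chief-like and neck-like cells, but no UMI was found in the 50 tuft-like cells, where Cdkn1c was highest by median. Chief-like cells held 12.7, 12.9 and 17.4 CPM for corpus replicates 2 to 4 and 15.7, 8.08 and 10.9 CPM for pylorus replicates 1 to 3. The regions overlapped, and the log2 difference was -0.24 ± 0.31 (adjusted p = 0.999, limma). Neck-like cells held 13.9, 9.38, 2.29 and 8.12 CPM in corpus and 14.98, 0.907 and 1.80 CPM in pylorus plates, a difference of -0.75 ± 0.63 (adjusted p = 0.9999, limma, and -1.47 to -0.28 with 1 plate left out). Here the neck-like clusters stood apart more than the regions. In corpus replicate 4, which had both, the cluster led by Gkn3, Pga5 and Muc6 was at 23.1 CPM (18 cells) and the one led by Muc6, Pga5 and Myo16 at 3.30 CPM (55 cells). Other classes had medians of 0.840 CPM or less.

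Igf2, a fetal growth factor that signals through the IGF-1 and insulin receptors, had 169 UMIs in 139 cells and 4 UMIs or fewer in any cell. Chief-like cells were highest by median and held 10.6, 9.45 and 8.10 CPM for corpus replicates 2 to 4 and 6.30, 4.97 and 5.45 CPM for pylorus replicates 1 to 3. The plate levels of the regions did not overlap, but each rested on only 4 to 20 UMIs. The 95% Poisson intervals of the counts overlapped between regions. The difference did not pass (-0.54 ± 0.35, adjusted p = 0.999, limma). Plate by plate, chief-like cells were highest in 2 of the 6 plates with enough of them. Proliferating-like cells were highest in 2 plates, and neck-like, endocrine-like and immune-like cells in 1 each. Igf2 lies beside H19 and Ins2 on chr7, in the neighbouring domain to Cdkn1c and Kcnq1ot1.

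Plagl1, a zinc-finger transcription factor known to act on other imprinted genes, was present in all the main epithelial classes. Neck-like cells were highest by median, between 9.89 and 15.4 CPM over the 7 plates, followed by proliferating-like (median 10.4 CPM), endocrine-like (9.85), pit-like (8.36) and chief-like cells (7.91), whose ranges overlapped. Parietal-like cells had a median of 1.71 CPM at a depth above that of the other classes. No UMI was found in 115 immune-like cells, which allows up to 2.61% of cells with a Plagl1 UMI at their median depth of 3691 UMIs and sets no limit on cells that express the gene. In no class did Plagl1 pass, and in pit-like cells of the plates of like depth it stood at 11.0 ± 2.35 and 4.26 ± 1.14 CPM (SD over 2 plates each, -1.06 ± 0.32, adjusted p = 0.0521, limma).

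Counted over the members tested, none passed with all plates in the fits with no replicate term: 0 of 7 over all cells (Meg3 and Nnat left out, since they were chosen on results of these data), 0 of 6 in chief-like, 0 of 5 in neck-like, 0 of 4 in pit-like and 0 of 3 in proliferating-like cells. The share of all genes called in these fits was 0.0167%, 0%, 0.0364%, 0% and 0.0118% in the same order, so counts of 0 lay near that share and describe nothing particular to the members. Among the plates of like depth Cdkn1c was the 1 of 7 that passed over all cells, the 1 of 5 in chief-like and the 1 of 4 in neck-like cells, and 0 of 4 passed in pit-like and 0 of 4 in proliferating-like cells. Over all genes 3.53%, 0.855%, 0.984%, 2.97% and 0.435% were called in these fits, in the same order. With corpus replicate 2 added Cdkn1c passed in none of the first 3. Among the plates of like depth without it, the chief-like median log2 difference over 5 members, Cdkn1c at -1.40 among them, was -0.58, beside 0.02 over all genes tested. Over all cells of the same plates the 7 members tested ran from -0.71 (Cdkn1c) to 0.16 (Peg3), with Igf2 at -0.24 and Kcnq1ot1 at -0.07. Meg3 in chief-like cells was at -1.37 ± 0.72 (adjusted p = 0.999, limma) over all plates, from -2.18 without pylorus replicate 2 to -0.44 without pylorus replicate 1, and Kcnq1ot1 at 0.43 ± 0.24 (adjusted p = 0.999, limma). In the fits with all plates and no replicate term, the member values given nowhere else in the text lay between -0.44 and 0.28. Tuft-like and immune-like cells were not tested.

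Kcnq1ot1 is a long noncoding RNA that starts inside Kcnq1, runs antisense to it and silences neighbours such as Cdkn1c on the paternal copy. Among the named classes its level was highest in immune-like cells, 6316 to 16152 CPM over 4 plates, followed by endocrine-like cells at 1365 to 5985 CPM over 7 plates, and lowest by median in chief-like cells at 697 to 1377 CPM over 6 plates. Endocrine-like, tuft-like, neck-like and proliferating-like ranges overlapped. The unnamed cells, with a median depth of 2096 UMIs, stood higher still by median, at 18574 CPM over 4 plates with a range of 573 to 84923 CPM. Kcnq1, a potassium channel subunit that recycles potassium for acid secretion, was instead highest in parietal-like cells, at 458 to 685 CPM, with medians of 84.9 CPM or less elsewhere.

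The share of Kcnq1ot1 in a cell moved with the depth of the cell. Its median share was 0.359% of UMIs in cells with 1000 to 2000 UMIs and 0.0763% in cells with 50000 or more, while the median count per cell rose from 5 to 45 UMIs. Spearman's rho of share and depth over cells was -0.168 to -0.538 within the 7 plates and -0.394 over all 2235 cells, a description with depth in both measures. Immune-like cells had a median depth of 3691 UMIs and endocrine-like cells 11354, and the part of depth in the order of classes was not tested. Among cells of 20000 to 50000 UMIs the median share was 0.212% in 16 tuft-like, 0.153% in 43 endocrine-like, 0.117% in 160 neck-like, 0.103% in 94 parietal-like, 0.0988% in 203 proliferating-like, 0.0890% in 263 pit-like and 0.0789% in 228 chief-like cells, with interquartile ranges that overlapped between neighbours. No immune-like cell reached that depth.

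**Figure D5:**
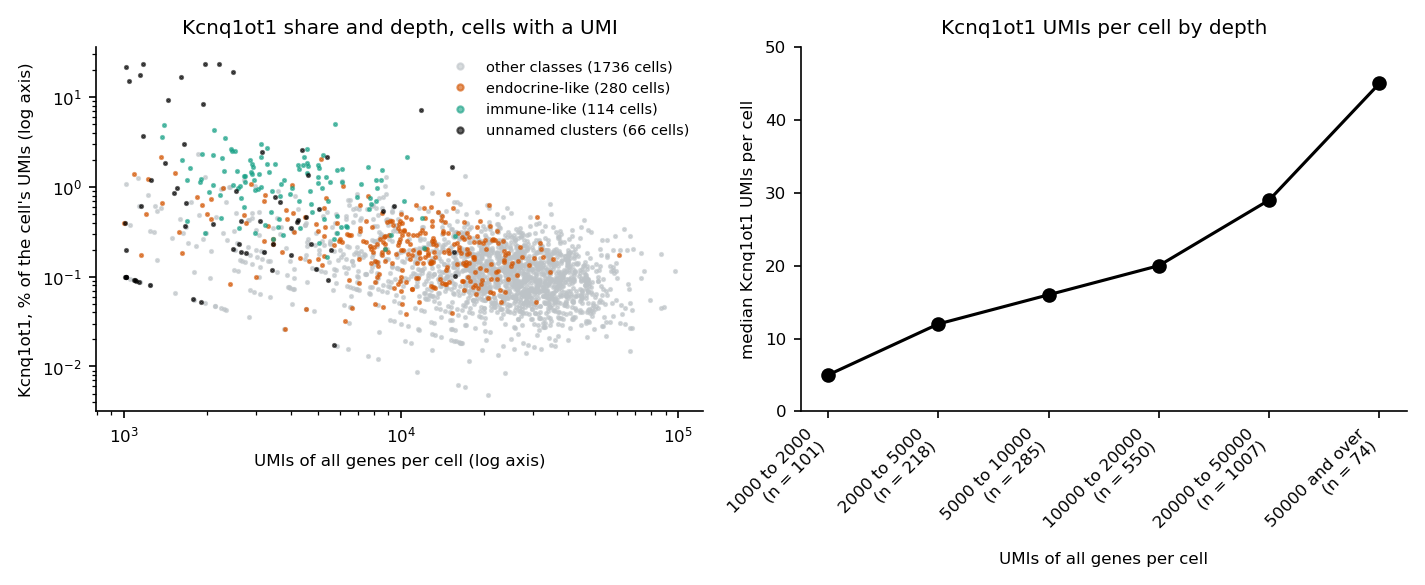
Left, the share of Kcnq1ot1 in the UMIs of each cell with a UMI of the gene against the cell's total UMIs (both axes log), by class. Right, the median Kcnq1ot1 UMIs per cell in ranges of depth over all plates, from 5 UMIs in the shallowest to 45 in the deepest cells.

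A few cells, most of them shallow, held very high shares. In 12 cells Kcnq1ot1 was over 5% of all UMIs, 8 of them with 1000 to 2000 UMIs, 2 with 2000 to 5000, 1 with 5000 to 10000 and 1 with 10000 to 20000. They were 5 each in corpus replicate 1 and pylorus replicate 1 and 1 each in pylorus replicates 2 and 3, with shares of up to 23.5%. These cells held 19.7% and 27.6% of the gene's UMIs in corpus replicate 1 and pylorus replicate 1. An unnamed cluster of 54 cells with a median of 1577 UMIs had a median share of 0.407% and counted Kcnq1ot1 among its leading genes, with Slfn9 and Grk4. Over all cells the gene stood at 2857, 897, 1264 and 1566 CPM in corpus and 2815, 1392 and 1511 CPM in pylorus plates, the 2 shallow plates being the highest. The region difference was 0.32 ± 0.41 (adjusted p = 0.9999, limma) over all plates and -0.07 ± 0.13 (adjusted p = 0.849, limma) among the plates of like depth.

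The genes whose levels were most like each member were found over 43 class-by-plate sums among 11081 genes, by Pearson's r of log2(CPM + 10), as a description, since the sums share plates and classes. Meg3 was most like Rian (0.98), Kcnk3, Slc38a3, Gcnt2 and Arnt2, and Rian most like Meg3, Slc8a1, Lhfpl5, Rgs7bp and Chic1. Peg3 was most like Corin (0.99), Prune2, Syn2, Fam155a and Arhgef17, and Nnat most like Pcsk2 (0.92), a prohormone convertase, Fam115a, Cry2, Olfml2b and Scg2. Cdkn1c was most like Fxyd6 (0.84), Gif, the intrinsic factor gene, St3gal6, Pnliprp2 and Dab1, and Grb10 most like Pnliprp2 (0.85), Gif, Herpud1, Afap1l1 and Pdia2. Kcnq1ot1 was most like Gm17821 (0.98), Vmn2r55, A630089N07Rik, Grk4 and A130077B15Rik. The nearest genes of Igf2 (Synpo2, 0.67) and Plagl1 (Entpd2, 0.76) had lower r. Both members were sparse (169 and 428 UMIs), with class medians of at most 7.20 and 14.5 CPM beside the added 10 CPM, and the part of low counts in these r was not tested. Between members, r was 0.90 for Meg3 and Peg3, 0.70 for Meg3 and Nnat, 0.68 for Cdkn1c and Grb10 and -0.20 for Meg3 and Cdkn1c.

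Other imprinted genes were spread over the classes. Of 38 listed genes 34 had a row and 17 had at least 100 UMIs. By median over plates 10 of these 17 were highest in endocrine-like, 3 in tuft-like and 1 each in chief-like, neck-like, parietal-like and immune-like cells. The share of all genes that are highest in each class is not given here, so no preference of imprinted genes is read from these counts. Some of the 10 varied between plates, as Mcts2 was highest in endocrine-like cells in 3 and Trappc9 in 4 of 7 plates. The 3 of 17 that were highest in endocrine-like cells in 7 of 7 plates were Nap1l5, Sgce and Gnas, which encodes the stimulatory G protein subunit, and the first 2 are named because of these values. Nap1l5 had 82.1 to 404 CPM there and a median of 2.56 CPM or less in the other named classes. Sgce had 28.2 to 88.6 CPM there and a median of 22.5 CPM in neck-like cells. Gnas had 1848 to 4084 CPM there and medians of 950 to 1997 CPM in the other named classes. Gnas, H13 and Ube3a were the most abundant of the list over all cells. H13 was highest in chief-like cells, with a median of 128 CPM against 92.5 CPM in endocrine-like cells, and Ube3a in endocrine-like cells, with a median of 108 CPM. The labels do not say which transcript of Gnas was counted, and its imprinting differs between transcripts.

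The wider lists differed between regions in few genes. Over all cells and all plates, 0 of 15 neighbours of the members, 0 of 17 other imprinted genes, 0 of 13 IGF and insulin signalling genes, 0 of 12 inhibitors of cyclin-dependent kinases and G1 cyclins and 0 of 13 genes of imprint maintenance and DNA methylation passed. In that fit 0.0167% of all 12003 genes were called, so counts of 0 lay near the share of all genes. Their median log2 differences were -3.9e-05, -0.10, -0.21, -0.09 and -0.19 in the order of the lists, beside 0.0012 over all genes. Among the 4 plates of like depth, where 3.53% of all genes were called over all cells, 2 of 12 IGF and insulin genes were lower in pylorus plates, Igf1, whose protein drives growth through Igf1r (38.8 ± 7.11 against 13.1 ± 0.505 CPM, SD over 2 plates each, -1.43 ± 0.15, adjusted p = 0.000115, limma), and Igfbp2 (38.2 ± 14.8 against 10.2 ± 4.69 CPM, -1.72 ± 0.26, adjusted p = 0.00195, limma). Igf1 was also lower in chief-like (-1.32 ± 0.25, adjusted p = 0.00116, limma) and neck-like cells (-0.94 ± 0.18, adjusted p = 0.00425, limma), as 1 of 7 and 1 of 8 genes of the list, beside 0.855% and 0.984% of all genes. In pit-like cells Igf1r was the 1 of 9 that passed (-0.89 ± 0.25, adjusted p = 0.0315, limma), beside 2.97% of all genes. With corpus replicate 2 added, 0 of 12212 genes passed over all cells (limma, 477 at an unadjusted p under 0.05), and Igf1 was at -1.64 (adjusted p = 0.469) over all cells, -1.40 (adjusted p = 0.505) in chief-like and -1.19 (adjusted p = 0.0923, limma) in neck-like cells.

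Of the neighbours, Kcnq1 (-0.92 ± 0.17, adjusted p = 0.00908, limma) and Cobl (-0.94 ± 0.21, adjusted p = 0.0242, limma), an actin nucleator beside Grb10, were the 2 of 15 that fell over all cells of these plates, and in pit-like cells Kcnq1 was the 1 of 12 (-0.87 ± 0.19, adjusted p = 0.00166, limma). Parietal-like cells, where Kcnq1 and Igfbp2 are high, were 56 of 361 and 42 of 334 cells in these corpus plates and 12 of 364 and 20 of 369 in these pylorus plates, and the part of that share was not tested. The kinase inhibitor Cdkn2b, a relative in function of Cdkn1c, was the 1 of 12 that fell (-1.50 ± 0.21, adjusted p = 0.00103, limma). Cdkn2b and Cobl were also high in parietal-like cells. In the corpus plates they stood at 180 and 192 CPM there, against 39.9 and 56.2 CPM over all cells (scaled means). Within parietal-like cells their differences were -0.62 and -0.30, and the part of the parietal-like share in their fall over all cells was not tested. Dcn, a proteoglycan that is imprinted in placenta, was the 1 of 18 other imprinted genes that rose over all cells (0.171 ± 0.242 and 3.19 ± 1.66 CPM, SD over 2 plates each, 1.22 ± 0.24 on the log2 scale, adjusted p = 0.0132, limma) and the 1 of 13 in chief-like cells (adjusted p = 0.00818, limma). Its 67 UMIs came from 32 cells. No gene of imprint maintenance passed in any class, and Trim28, Mbd2 and Ctcf were its most abundant. Zfp57 itself had 2 UMIs in 2 cells. With corpus replicate 2 added none of these genes passed over all cells: Kcnq1 changed sign to 0.30, Cobl was at -0.48, Igfbp2 at -0.44, Cdkn2b at -0.16 and Dcn at 1.23, and Dcn in chief-like cells was at 2.73 (adjusted p = 0.649, limma).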

How the data were processed

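Cells of mouse gastric glands were sorted into 7 plates of 384 wells (4 corpus, 3 pylorus) and sequenced by CEL-seq2, per the labels' protocols. The authors deposited a table of whole-number UMI counts (other than reads, unscaled) for each plate. Reads were placed on mm9, per the submitters' processing notes, while the aligner, counter, annotation and use of strand were not given in the sources used here. The members and lists were chosen with earlier results of these data known.

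Wells with at least 1000 UMIs outside spike-ins were kept. Counts were scaled to 10000 per cell, and 2000 variable genes without the listed imprinted genes gave 30 principal components, 15 neighbours and Leiden clusters at resolution 1 (scanpy 1.11.5). Doublets were not called. A cluster was named when at least 3 markers, each in over 25% of its cells, had a mean log2 fold of 0.5 or more over other cells of the same plate. It stayed unnamed where markers of another class led, or at low depth with no leading marker of its own. This was the second of 2 naming rules tried, chosen after seeing which clusters the first, with folds over all other cells, left unnamed. Plates share well names by design.

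UMIs were summed per plate and class with at least 10 cells, scaled by TMM factors, filtered (minimum count 10, total 15) and tested on log2(CPM + 2) with limma 3.58.1 in R 4.3.3, with Benjamini-Hochberg adjustment over all genes and a threshold of 0.05. A planned count model was replaced by limma because the tables' layout could not be checked as counts. The script was tested on simulated data with 200 changed genes. No 2 plates of a region agreed within sampling noise. Named were all members, list genes that passed or else the 3 most abundant, and the 5 genes most like each member. Alternatives were other size factors, no filter, left-out plates, a replicate block, the plates of like depth, at least 2000 UMIs, thinning to 1000 UMIs, and, added after seeing the data, a pseudocount of 0.5, voom weights, leaving out unnamed clusters and adding corpus replicate 2 to the plates of like depth. Clusters were also made at resolutions 0.6 and 1.5 and with imprinted genes kept. Intervals are 95% and cover counting error only, and a count of 0 allows 3 counts.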

Additional observations from a re-analysis of the deposited data

Results flagged for a closer look

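In endocrine-like cells Peg3 stood at 158 CPM in corpus replicate 1, from 9 UMIs, against 404 to 436 CPM in the other 3 corpus plates. In neck-like cells Peg3 stood at 11.4 CPM in corpus replicate 2, from 17 UMIs, against 1.87 to 2.86 CPM in the other 3. In both cases 1 plate lay far from the rest of its region. In all, 36 groups of 4 plates were looked at, and chance marks about 1 in 20.

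Wells with fewer than 1000 UMIs entered no comparison, and they also held Kcnq1ot1. Its share of their UMIs was 3.40%, 0.0453%, 0.925% and 0.805% on corpus replicates 1 to 4, and on pylorus replicates 1 to 3 it was 2.32%, 1.49% and 0.742%. In the kept wells of the same plates it was 0.286%, 0.0897%, 0.126% and 0.157%, and 0.282%, 0.139% and 0.151%. The share was higher in the left-out wells in 6 of 7 plates and lower in corpus replicate 2.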

How the results depend on the processing

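Counts of genes past the threshold depended on the plates. Over all cells they went from 2 to 0 without the filter, 1 with the replicate block, 423 among the plates of like depth, 1 with cells thinned, 1 with a pseudocount of 0.5 and 0 with voom weights (0 to 2 with 1 plate left out). In parietal-like cells 46 of 300 genes tested passed with cells thinned (142 to 1306 with 1 plate left out). In endocrine-like cells 19 passed among the plates of like depth (0 to 0). In chief-like cells 3 passed without the filter, 10 with the block and 61 among the plates of like depth (0 to 3). In neck-like cells the values were 6 with the block, 83 and 0 when thinned (2 to 3). In pit-like cells they were 1 without the filter, 57 with the block, 263 and 1 with voom weights (0 to 2). In proliferating-like cells they were 3 with the block, 39 and 0 when thinned (1 to 2). With corpus replicate 2 added to the plates of like depth, 0 passed over all cells, 3 in chief-like and 20 in neck-like cells, and Cdkn1c passed in none of them. The cause was not tested.

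The labels do not say whether the replicate numbers pair the plates. Deviations of same-numbered plates correlated at 0.45, -0.11 and 0.47. Corpus replicates 1 and 3 correlated best with the pylorus plate of the same number, and corpus replicate 2 with pylorus replicate 1. With the replicate block Cdkn1c differed by -2.33 in chief-like (adjusted p = 0.0467, limma) and -2.15 in neck-like cells (adjusted p = 0.0647, limma). Kcnq1ot1 over all cells changed sign to -0.0742 among the plates of like depth, and Cdkn1c in proliferating-like cells ranged from -0.78 to 0.0400 with 1 plate left out. Thinning moved the median of Rian in endocrine-like cells to 50 CPM, and those of Grb10 and Igf2 in chief-like cells to 8.20 and 0 CPM. The median of Meg3 in parietal-like cells ran from 10.9 to 202 CPM with 1 plate left out. Proliferating-like cells numbered 144 to 279 under other clusterings, against 429. A planned DESeq2 test was not run.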
